A study of Homo sapiens with 6 samples.

Results

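CD74, the MHC class II chains HLA-DRA, HLA-DRB1, HLA-DPA1, HLA-DPB1 and HLA-DQA1, the peptide-exchange chains HLA-DMA and HLA-DMB, and the regulators CIITA and RFX5 form the set of 10 genes described here, of 60675 gene identifiers counted. They were selected by symbol, and CD74 was chosen on its measured rise with vitamin C in these same libraries. The levels and fold changes of the 10 genes are therefore a description, with no p-value. A count of how many passed the threshold is given beside the share over all genes, and again under alternative settings. Nothing is read from that count in either place. RNA was sequenced from A2058 cells, a cell line from a metastatic melanoma, to ask how vitamin C changes their transcripts. The control group was 3 wells without vitamin C and the vitamin C group was 3 wells given 100 µM for 48 h. The protocol text of the labels instead gives 50 µM sodium ascorbate, and the dose on the sample labels, which the methods also give, is used here. All wells are of one cell line, so differences between wells of a group may be technical, and every p-value below measures only the spread between wells.

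MHC class II molecules are pairs of an alpha and a beta chain (DR, DP or DQ) that show peptides from endosomes to CD4+ T cells. CD74, the invariant chain, fills the groove of new class II molecules, guides them to endosomes and is cut down there by proteases, after which HLA-DM exchanges its last fragment for peptide. CIITA is the coactivator that drives class II and CD74 transcription, and it works through RFX5 and the other factors bound at the X and Y boxes of class II promoters. These genes are mainly active in antigen-presenting cells of the blood, but a part of melanomas also carries class II molecules.

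The letters of these boxes were searched in reference promoters by exact match. RefSeq promoters of GRCh38.p14, from 250 bases before to 50 bases after the start, were found for 8 of the 10 genes (11 promoters). HLA-DRA and CIITA were not matched. The core of the X box was searched as ACNGATG and that of the Y box as ATTGG, each on both strands, and the motifs do not overlap. ACNGATG was in 7.65% of all 35116 promoters and ATTGG in 34.6%. ACNGATG followed by ATTGG on one strand, either strand, with 15 to 30 bases between them, was in 0.114%. Of the 17 promoters of the 10 genes and the other class II chains, 4 held this pair, on the strand of the gene, those of HLA-DRB1, HLA-DRB5, HLA-DQB1 and HLA-DMA. Below, 60 bases of 8 promoters are printed 5′ to 3′ on the strand of the gene, with matched letters in capitals. They are reference sequences and not the alleles of A2058.
HLA-DRB1, chr6:32589872-32589931, minus strand: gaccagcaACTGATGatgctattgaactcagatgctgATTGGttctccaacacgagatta
HLA-DRB5, chr6:32530355-32530414, minus strand: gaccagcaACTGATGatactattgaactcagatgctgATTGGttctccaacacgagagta
HLA-DQB1, chr6:32666723-32666782, minus strand: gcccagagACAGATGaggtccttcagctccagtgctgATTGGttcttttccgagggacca
HLA-DMA, chr6:32953155-32953214, minus strand: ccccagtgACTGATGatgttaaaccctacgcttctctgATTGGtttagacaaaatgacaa
HLA-DMB, chr6:32941061-32941120, minus strand: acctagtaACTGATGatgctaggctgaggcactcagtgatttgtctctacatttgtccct
HLA-DPB1, chr6:33075854-33075913, plus strand: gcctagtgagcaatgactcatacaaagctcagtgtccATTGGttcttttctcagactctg
HLA-DQA1, chr6:32637301-32637360, plus strand: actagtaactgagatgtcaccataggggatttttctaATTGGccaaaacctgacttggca
CD74, chr5:150412941-150413000, minus strand: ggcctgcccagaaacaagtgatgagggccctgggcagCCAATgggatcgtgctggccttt

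Between the motifs lie 22 bases in HLA-DRB1, HLA-DRB5 and HLA-DQB1 and 23 in HLA-DMA. The stretch of HLA-DMB holds the X box letters alone, and those of HLA-DPB1 and HLA-DQA1 hold the Y box letters alone. In the CD74 stretch the capitals CCAAT are ATTGG read on the other strand, and its promoter also held ACNGATG on that strand, farther from the start and outside the stretch. Both HLA-DPA1 promoters held neither motif, and of 3 RFX5 promoters 1 held ATTGG on the other strand. A match is a match of letters and not a bound site, and a box with other letters would not be found.

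Library totals ran from 16248869 to 41884588 counts in control wells and from 20944956 to 32549362 in vitamin C wells. Of 16353 genes with enough counts to test, 1829 (11.2%) passed an adjusted p of 0.05 in edgeR's quasi-likelihood test, 6.09% higher and 5.09% lower with vitamin C. The melanoma identity of the cells was plain at the RNA level, with the 12 melanoma markers measured summing to between 3334 and 3467 CPM, counts scaled to library size, in control and between 3166 and 3313 CPM in vitamin C wells. Of these markers MLANA, PMEL, TYR and PAX3 (4 genes) were higher and DCT, a pigment enzyme, was lower with vitamin C. DCT had the highest level of the 12 and weighs most in the sums, with a mean of 1515 CPM in control and 1234 CPM with vitamin C. MLANA was low in control, with a mean of 1.54 CPM, against 15.4 CPM with vitamin C. The called share was 41.7%, against 11.2% of all genes tested. The PAX3 call was lost without control replicate 1 or control replicate 2.

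CD74 had the largest fold change of the 10 genes, 3.73-fold, and transcripts of the DR chains, HLA-DPA1, HLA-DMA and CIITA were higher in every vitamin C well than in any control well. RFX5, HLA-DPB1, HLA-DMB and HLA-DQA1 overlapped between the groups. Of the 10 genes, 9 had enough counts to test, all but HLA-DQA1. Of these 9, CD74, HLA-DRA, HLA-DRB1, HLA-DPA1, HLA-DMA and CIITA (6 genes) passed the threshold as higher and none as lower, where 6.09% of all genes tested were called higher. The count was 5 without control replicate 1, where HLA-DRA missed the threshold. The CPM of the same 6 did not overlap between groups and were higher with vitamin C, where 15.6% of all genes tested did so. Since the set was chosen with the CD74 result known, nothing is read from these counts. The median log2 fold change of the 9 genes was 0.85, against -0.00 for all genes tested. In bulk RNA, more cells with a transcript and more RNA per cell cannot be told apart.

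**Figure D1:**
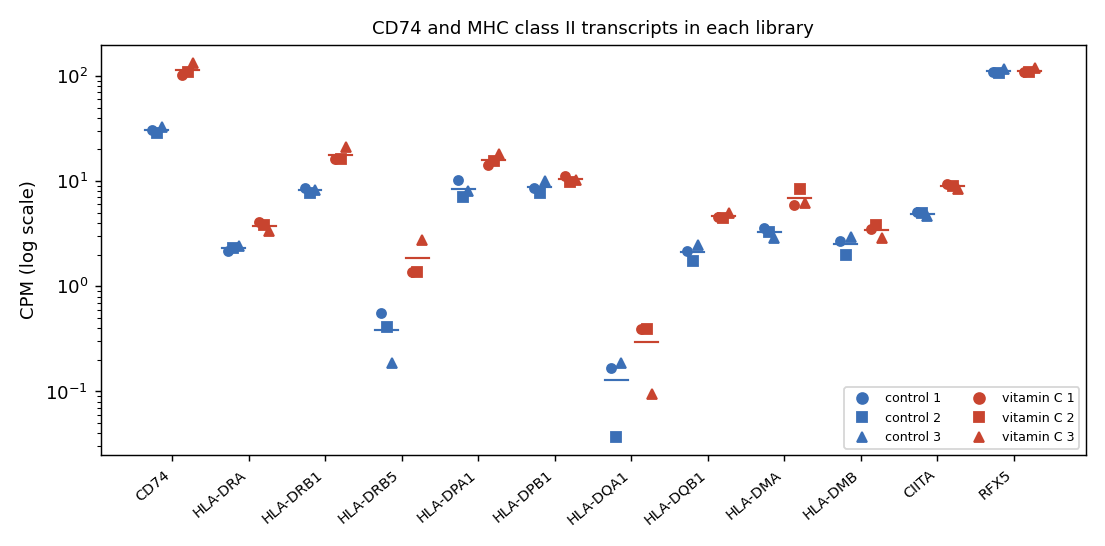
Level of each gene in CPM (log scale) in each of the 3 control (blue) and 3 vitamin C (red) libraries, with a line at the mean of each group and the same marker shape for the same replicate number. The CD74 points sit between 28.9 and 33.0 CPM in control and between 103 and 132 CPM with vitamin C, while the RFX5 points of the groups overlap.

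CD74 lies on the minus strand of chromosome 5 (chr5:150401637-150412929, GRCh38, GENCODE 29), outside the MHC. Its level was 30.5, 28.9 and 33.0 CPM in control replicates 1, 2 and 3 and 103, 109 and 132 CPM in vitamin C replicates 1, 2 and 3. The lowest vitamin C well was therefore far above the highest control well, and the spread within each group was small beside the gap. The mean was 30.8 ± 2.08 CPM in control and 115 ± 15.2 CPM with vitamin C (SD, n = 3 wells each). The log2 fold change was 1.90 (standard error, SE, 0.0864), or 3.73-fold. Each SE given here is the log2 fold change without its sign over the square root of the quasi-likelihood F statistic. It is therefore not separate from the test. These values rest on 1270, 777 and 534 counts in control and 2627, 3601 and 2762 counts in vitamin C wells. By log2 fold change CD74 had rank 37 from the top among the 16353 genes. No other gene overlaps its exons.

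The DR chains were both higher with vitamin C. HLA-DRA encodes the nearly invariant alpha chain of DR (chr6:32439842-32445046, plus strand), and its level was 2.19, 2.31 and 2.41 CPM in control and 4.11, 3.80 and 3.34 CPM in vitamin C replicates. The lowest vitamin C well was above the highest control well. The mean was 2.30 ± 0.114 CPM in control and 3.75 ± 0.386 CPM with vitamin C (SD, n = 3 wells each), and the log2 fold change was 0.72 (SE 0.160). HLA-DRB1, the polymorphic beta chain (chr6:32578769-32589848, minus strand), was at 8.52, 7.71 and 8.29 CPM in control and at 16.3, 16.3 and 21.2 CPM in vitamin C replicates. Vitamin C replicate 3 was the highest and all 3 lay above the control wells, with a log2 fold change of 1.12 (SE 0.112). Reads of the DR beta genes can be split among near-identical copies, so HLA-DRB1 and HLA-DRB5 are uncertain as single genes.

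The DP alpha chain did not overlap between the groups and the beta chain did. HLA-DPA1, the DP alpha chain (chr6:33064569-33080775, minus strand), was at 10.3, 7.11 and 7.98 CPM in control and at 14.1, 15.6 and 18.1 CPM in vitamin C replicates. The groups did not overlap, and the log2 fold change was 0.88 (SE 0.132). HLA-DPB1, the DP beta chain (chr6:33075926-33087201, plus strand), was at 8.69, 7.71 and 10.1 CPM in control and at 11.2, 9.82 and 10.2 CPM in vitamin C replicates. Its groups overlapped, and the log2 fold change was 0.25 (SE 0.110). The genes overlap on opposite strands over 1.7% of HLA-DPA1 and 3.4% of HLA-DPB1 exon bases, and reads there cannot be assigned to one of them if the counting did not use strand. The difference between the fold changes of the DP chains was not tested.

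HLA-DQA1, the DQ alpha chain (chr6:32628179-32647062, plus strand), was near the limit of detection, with 7, 1 and 3 counts in control and 10, 13 and 2 counts in vitamin C replicates. These counts, 11 against 25 in sum, overlap between groups and were too few to be tested. Whether HLA-DQA1 differed cannot be said from these counts, and the reason for its low counts was not examined. HLA-DQB1, its beta chain partner and not one of the 10 genes, had more counts and was at 2.16, 1.75 and 2.48 CPM in control and at 4.54, 4.47 and 5.01 CPM in vitamin C replicates. HLA-DQB1 rose in all 3 vitamin C wells by a log2 fold change of 1.15 (SE 0.164), with an adjusted p of 5.4e-04 by edgeR over all genes.

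HLA-DRB5, a further DR beta chain outside the 10 genes, was at 0.552, 0.410 and 0.186 CPM in control and at 1.37, 1.37 and 2.77 CPM in vitamin C replicates. Vitamin C replicate 3 was the highest well, and the groups did not overlap. The fitted log2 fold change of HLA-DRB5 was 2.07 (SE 0.386), from 23, 11 and 3 counts to 35, 45 and 58 counts. Its control wells alone would not have passed the filter on low counts, so its values are a description with no test. Of the 6 other class II chains only HLA-DQB1 and HLA-DRB5 had enough counts to test. HLA-DOA had 1 count in control and 4 in vitamin C wells in all, HLA-DQA2 had 1 count in vitamin C replicate 3, and HLA-DOB and HLA-DQB2 had none.

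**Figure D2:**
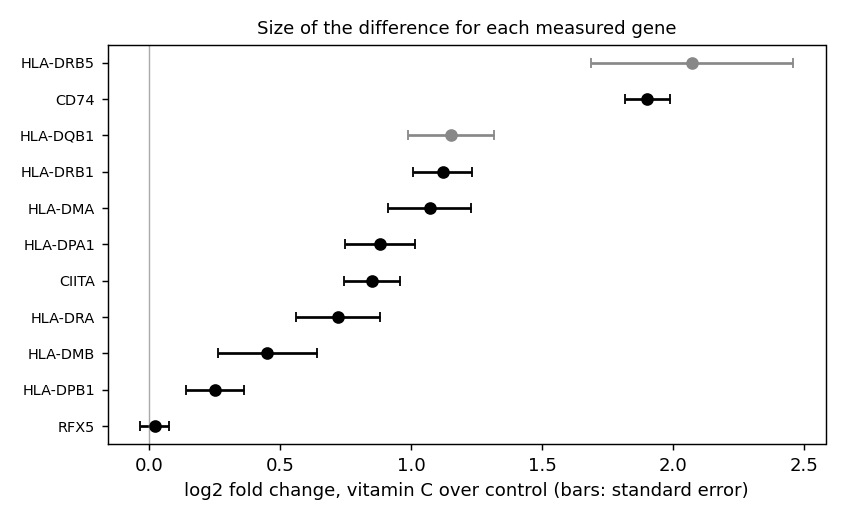
Log2 fold change with vitamin C for the 9 genes of the set with enough counts (black) and for HLA-DQB1 and HLA-DRB5 (gray), with bars of 1 standard error. CD74 at 1.90 and HLA-DRB5 at 2.07 lie farthest from 0, and RFX5 lies at 0.02.

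HLA-DM removes the last CD74 fragment from class II molecules, and of its chains HLA-DMA did not overlap between the groups and HLA-DMB did. HLA-DMA (chr6:32948613-32969094, minus strand) was at 3.55, 3.28 and 2.91 CPM in control and at 5.99, 8.48 and 6.21 CPM in vitamin C replicates. All vitamin C wells were above all control wells, with replicate 2 the highest, and the log2 fold change was 1.07 (SE 0.159). HLA-DMB (chr6:32934629-32941070, minus strand) was at 2.69, 1.97 and 2.97 CPM in control and at 3.52, 3.86 and 2.86 CPM in vitamin C replicates. Its vitamin C replicate 3 fell within the control range, and the log2 fold change was 0.45 (SE 0.188). The identifier AL645941.2 overlaps both on the same strand and had 0 counts in every library, while BRD2 overlaps 2.2% of HLA-DMA exon bases on the opposite strand. Whether the fold changes of HLA-DMA and HLA-DMB differ was not tested.

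CIITA and RFX5 are the regulators in the set, and CIITA alone did not overlap between the groups. CIITA (chr16:10866222-10943021, plus strand) was at 5.09, 4.99 and 4.64 CPM in control and at 9.31, 9.06 and 8.35 CPM in vitamin C replicates. The groups lay well apart, with the highest control well far below the lowest vitamin C well, and the log2 fold change was 0.85 (SE 0.108), or 1.81-fold. RFX5, the DNA-binding subunit of the X box complex (chr1:151340640-151347357, minus strand), was at 109, 106 and 117 CPM in control and at 109, 109.8 and 118 CPM in vitamin C replicates. These ranges overlap almost entirely, and the log2 fold change was 0.02 (SE 0.0546). Other genes share 11.5% of CIITA exon bases on the same strand and 12.4% on the other, and genes on the other strand share 9.8% of RFX5 exon bases. Of those at CIITA, DEXI had a log2 fold change of 0.02 (edgeR adjusted p = 0.93), and AC133065.3 had 54 counts in control and 79 in vitamin C wells, against 421 and 711 for CIITA.

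Levels of different genes were compared per length, as RPKM over the union of exons. In control wells RFX5 had the highest level, 24.2 RPKM, followed by CD74 at 9.68 ± 0.652 RPKM (SD, n = 3 wells) and HLA-DRB1 at 6.65 RPKM. With vitamin C the order at the top changed, with CD74 at 36.0 ± 4.78 RPKM (SD, n = 3 wells) above RFX5 at 24.5 RPKM and HLA-DRB1 at 14.6 RPKM. Below them came HLA-DPB1 (3.16 RPKM in control and 3.72 RPKM with vitamin C) and HLA-DRA (1.80 and 2.93 RPKM), and CIITA was low in RPKM (0.236 and 0.429). The CIITA value was divided by 20757 bases of exons, and a shorter length would raise it. Some neighbours in the order overlapped in their mean ± SD. In control these were HLA-DRA and HLA-DPA1, HLA-DPA1 and HLA-DMA, HLA-DMB and HLA-DQB1, HLA-DQB1 and HLA-DRB5, HLA-DRB5 and CIITA, and HLA-DQA1 and HLA-DOA. With vitamin C these were HLA-DRA and HLA-DPA1, HLA-DPA1 and HLA-DMA, HLA-DRB5 and HLA-DQB1, and HLA-DQA1 and HLA-DOA. HLA-DOA and the genes below it were at or near 0 counts. With the longest transcript as length, chosen after seeing the data, CD74 was at 21.3 RPKM in control and 79.2 RPKM with vitamin C, and RFX5 was at 31.0 and 31.4 RPKM. In that order HLA-DRA went from rank 5 to rank 8 in control, below HLA-DPA1, HLA-DMA and HLA-DMB, and HLA-DPA1 was above HLA-DPB1 with vitamin C (9.35 against 6.66 RPKM).

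**Figure D3:**
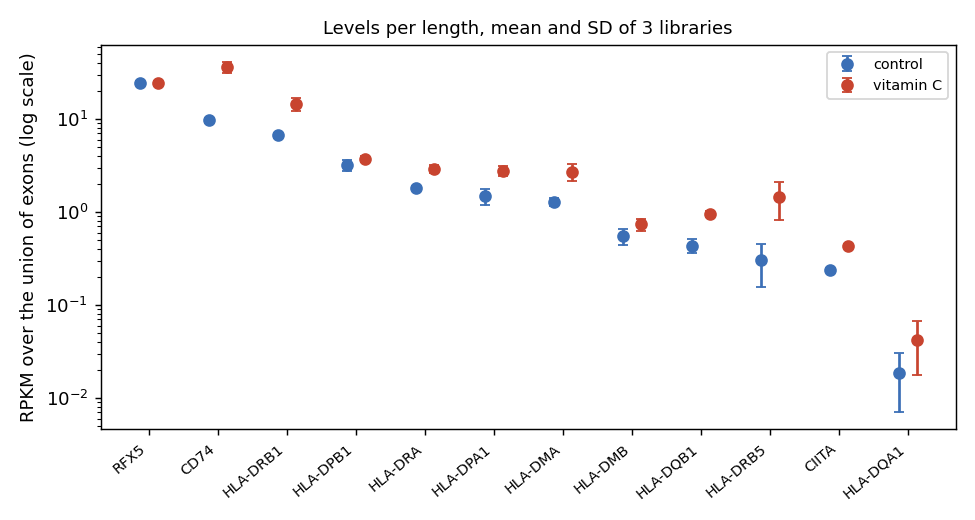
Mean level per length in RPKM (log scale, exon union as length) with bars of 1 SD over 3 libraries (blue for control, red for vitamin C), ordered by the control level. CD74 goes from 9.68 to 36.0 RPKM and passes RFX5, which stays at 24.2 and 24.5 RPKM.

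CD74 also gained on the chains it chaperones. The RPKM of CD74 over the summed RPKM of 7 DR, DP and DQ chains was 0.663, 0.712 and 0.725 for the control and 1.29, 1.4 and 1.38 for the vitamin C replicates. The groups did not overlap in this ratio, and they did not overlap with the longest transcript as length either (0.954 to 1.08 against 1.98 to 2.16). The summed RPKM of the chains was 14.5, 12.8 and 14.3 for the control and 25.0, 24.5 and 29.9 for the vitamin C replicates. Within DR, the ratio of HLA-DRB1 to HLA-DRA in RPKM was 4.06, 3.48 and 3.58 for the control and 4.13, 4.46 and 6.62 for the vitamin C replicates, with replicate 3 apart from the other wells. Within DP, the ratio of HLA-DPA1 to HLA-DPB1 in RPKM was 0.575, 0.448 and 0.384 for the control and 0.615, 0.771 and 0.860 for the vitamin C replicates, which do not overlap. These ratios use the values that chose the set and were not tested.

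The class II genes of chromosome 6 lie among genes of other roles, which give a comparison at the same locus. Between the start of HLA-DRA and the end of HLA-DPB1 (chr6:32439842-33087201) there are 34 identifiers, of which 13 had enough counts to test. Of these, 8 are class II genes, with log2 fold changes from 0.25 for HLA-DPB1 to 2.07 for HLA-DRB5, and 5 are others, with a median of 0.38. PSMB8, a subunit of the immunoproteasome, rose from 23.7 to 30.9 CPM, a log2 fold change of 0.38 (SE 0.077, edgeR adjusted p = 0.0067). TAP1, a subunit of the peptide transporter of class I presentation, rose from 15.8 to 20.6 CPM, a log2 fold change of 0.38 (SE 0.0889, edgeR adjusted p = 0.015). PSMB9 had a log2 fold change of 0.43 (edgeR adjusted p = 0.17), TAP2 of -0.22 (0.58) and the chromatin reader BRD2 of -0.12 (0.46), and none of these passed the test.

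**Figure D4:**
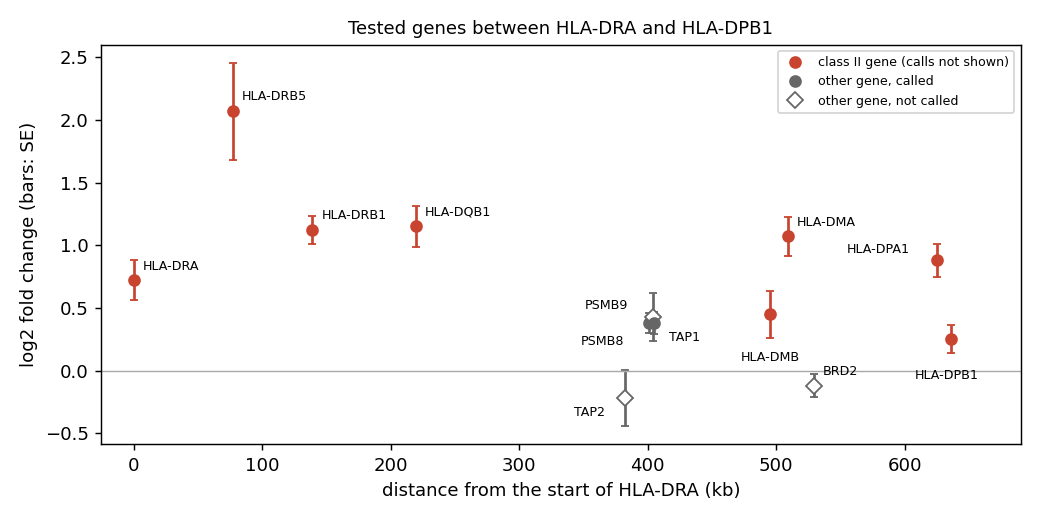
Log2 fold change with vitamin C with bars of 1 SE for the 13 tested genes from HLA-DRA to HLA-DPB1, placed by the distance of their start from that of HLA-DRA in kb. The 8 class II genes (red) lie from 0.25 to 2.07, with calls not shown, and of the 5 other genes (gray) PSMB8 and TAP1 are filled, which marks a call, both at 0.38.

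Beyond the 10 genes, 99 genes of the class II pathway were listed by role, and 78 had enough counts to test. Leaving out HLA-DRB5, 7 of 77 were higher and 4 lower with vitamin C (14.3% in either direction), 66 did not pass the test, and the median log2 fold change was 0.00. Over all genes tested 6.09% were higher and 5.09% lower (11.2% in either direction), and the counts of the single roles below stand beside these same shares. With HLA-DRB5 counted, the calls were 8 higher and 4 lower, and upper quartile scaling gave 7 rises and 6 falls, and library totals without TMM gave 10 rises and 4 falls. HLA-DQB1, the protease CTSS and the protease CTSV kept their calls in all 15 alternatives. These 12 calls became 5, 6 and 6 without control replicate 2, control replicate 3 or vitamin C replicate 2, and 18 without vitamin C replicate 3.

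Among 13 measured proteases, inhibitors and enzymes that process the invariant chain and peptides, 3 were higher and 1 lower with vitamin C (30.8%, against 11.2% of all genes tested), with a median log2 fold change of -0.12. CTSS, cathepsin S, which makes the last cut of CD74 in antigen-presenting cells, was at 35.2, 34.7 and 36.0 CPM in control and at 59.7, 60.8 and 57.1 CPM in vitamin C replicates. CTSS rose in all 3 wells, by a log2 fold change of 0.75 (SE 0.0562, edgeR adjusted p = 2.7e-06). CTSV, cathepsin V, a relative of cathepsin L that is known from thymic epithelium, was at 10.1, 8.23 and 9.84 CPM in control and at 5.20, 4.80 and 5.44 CPM in vitamin C replicates. CTSV fell in all 3 wells, with a log2 fold change of -0.87 (SE 0.118, edgeR adjusted p = 3.4e-04). The aspartic protease CTSD rose by 0.39 (SE 0.0878, edgeR adjusted p = 0.012) and SPPL2A, which cuts the membrane stub of CD74, by 0.17 (SE 0.0462, edgeR adjusted p = 0.033), both on the log2 scale. The abundant cathepsins CTSC (-0.12, edgeR adjusted p = 0.20), CTSL (-0.15, 0.21, called without vitamin C replicate 3) and CTSB (0.09, 0.22) did not pass the test. The CTSD and SPPL2A calls were lost when single libraries were left out.

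Among 17 measured genes of class II traffic and turnover, 3 were higher and 1 lower with vitamin C (23.5%, against 11.2% of all genes tested), with a median log2 fold change of 0.08. CD63, CD82 and CD9 are tetraspanins, membrane proteins that gather with class II molecules in endosomes and on the surface. CD63 rose from 329 to 395 CPM (log2 fold change 0.27, edgeR adjusted p = 0.024), CD82 from 2.84 to 4.42 CPM (0.60, adjusted p = 0.044) and CD9 from 22.5 to 27.9 CPM (0.31, adjusted p = 0.026). Of the other tetraspanins listed, CD81 had a log2 fold change of -0.15 (edgeR adjusted p = 0.36), and CD37 had too few counts to test, with both named after their values had been seen. HSP90B1, a chaperone of the endoplasmic reticulum, fell from 2073 to 1817 CPM (log2 fold change -0.19, edgeR adjusted p = 0.022). The chaperone CANX (0.05, edgeR adjusted p = 0.55), the lysosomal protein LAMP1 (0.07, 0.56) and the adaptor subunit AP2M1 (0.09, 0.31) did not pass the test. Each of the 4 calls in this list was lost in at least 2 of the 6 fits that left out a library. The CD82 call was lost in 7 of 15 alternatives, upper quartile scaling and limma-voom with all libraries kept among them.

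The partners of RFX5 at class II promoters held 0 calls in edgeR among 8 genes (1 at an unadjusted p under 0.05, 0 calls in DESeq2 and limma-voom), a count near the 11.2% of all genes, with a median log2 fold change of -0.04. Log2 fold changes were -0.14 for CREM (edgeR adjusted p = 0.11, called only without vitamin C replicate 3), 0.09 for CREB1 (0.25) and -0.13 for NFYA (0.24), factors of the X2 and Y boxes. RFXANK and RFXAP, the other RFX subunits, had values of 0.06 (edgeR adjusted p = 0.74) and -0.05 (0.85), with both named once the values had been seen. Of 15 coactivators and repressors of CIITA, only SMARCA4, the ATPase of a chromatin remodelling complex, passed the test (6.67% of the list, against 11.2% of all genes tested), with 197 CPM in control and 170.2 CPM with vitamin C (log2 fold change -0.21, edgeR adjusted p = 0.015). CCNT1 (-0.08, edgeR adjusted p = 0.28), KAT2B (-0.19, 0.056) and HDAC1 (0.03, 0.85) did not, though KAT2B was called in 5 of 15 alternatives, DESeq2 among them. The SMARCA4 call was lost without control replicate 1, control replicate 2 or vitamin C replicate 2.

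The interferon gamma route, the best known inducer of CIITA outside antigen-presenting cells, held 0 calls in edgeR among 10 measured genes (2 at an unadjusted p under 0.05, 0 calls in DESeq2 and limma-voom), beside the 11.2% of all genes. IFNG itself had 0 counts in 5 libraries and 1 count in vitamin C replicate 3. JAK1 had a log2 fold change of 0.11 (edgeR adjusted p = 0.18) and the phosphatase PTPN11 of 0.00 (0.99). IRF1, which acts on the CIITA promoter, was at 6.03 CPM in control and 6.05 CPM with vitamin C (0.01, edgeR adjusted p = 0.98), and was named after its value was seen.

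CD74 is also a surface receptor for the cytokine MIF. MIF was listed at 0 in every library, and MIF-AS1, which overlaps it on the opposite strand, had few counts. Absent RNA and reads not assigned to this identifier cannot be told apart here, so the 0 is not read as a lack of MIF. DDT, a relative of MIF that also binds CD74, fell from 12.7 CPM in control (log2 fold change -0.34, SE 0.0847, edgeR adjusted p = 0.021), a call lost without control replicate 1, control replicate 2 or vitamin C replicate 2. The signalling partner CD44 was at 519 and 512 CPM (-0.02, edgeR adjusted p = 0.82) and the kinase SRC had a log2 fold change of -0.01 (0.97). Of 17 ligands that a class II cell can show to T cells, 10 were measured and 0 passed the edgeR test (6 at an unadjusted p under 0.05), beside the 11.2% of all genes, LGALS3 (0.12, edgeR adjusted p = 0.13), PVR (-0.20, 0.057) and CD276 (-0.19, 0.067) among them. PVR was called in 6 of 15 alternatives, DESeq2 and limma-voom among them, and TNFRSF14 (0.43, edgeR adjusted p = 0.066), named after its value was seen, in 5.

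**Figure D5:**
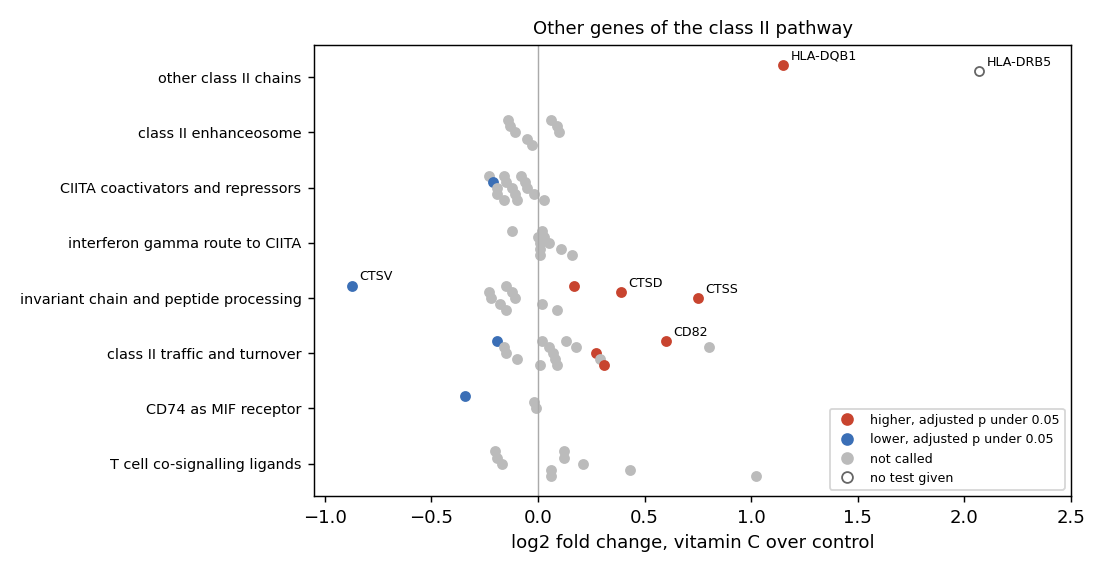
Log2 fold change with vitamin C for the 78 tested pathway genes outside the set of 10, by role, with calls in red (higher, 7 genes) and blue (lower, 4 genes), others in gray, and HLA-DRB5 as an open point with no test given. HLA-DRB5 and HLA-DQB1 lie at 2.07 and 1.15, CTSS at 0.75 and CTSV at -0.87, and the enhanceosome and interferon gamma lists hold no call.

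CD74 and the class II genes are also markers of blood cells, so 26 other blood cell markers were measured. Their summed level was 17.6 to 19.4 CPM in control and 20.3 to 22.2 CPM in vitamin C wells, which do not overlap. Of the 26, LAPTM5, CD22, CD163, CD1C and FLT3 (5 genes) had CPM that were higher in every vitamin C well than in any control well, as did 15.6% of all genes tested, and CD163, CD1C and FLT3 had too few counts to test. LAPTM5, a lysosomal protein of blood cells, rose from 4.33 to 8.40 CPM (log2 fold change 0.98, edgeR adjusted p = 2.2e-04), and LYZ, lysozyme, fell from 8.10 to 5.75 CPM (-0.50, adjusted p = 0.0094), a call lost without control replicate 2. The other 5 of the 7 measured genes did not pass the test, so 28.6% were called, against 11.2% of all genes tested. Without LYZ and LAPTM5 the sum was 5.59 to 6.26 CPM in control and 5.99 to 9.31 CPM with vitamin C. In the list, markers of B cells (CD79A), myeloid cells (CD14, CSF1R, CD68, SPI1, TYROBP), dendritic cells (CD1C) and T cells (CD3E, CD2) had at most 3 counts in every library, and AIF1 had none. Some other markers had few counts but more in the vitamin C wells. Sums over 3 control and 3 vitamin C wells were 3 and 21 for CD163, 3 and 17 for FLT3 and 3 and 15 for CLEC9A. They were 6 and 17 for MS4A1 and 3 and 9 for CD79B. Vitamin C replicate 3 had the most counts of CD163 (11), FLT3 (9), CLEC9A (11) and MS4A1 (8). Others had fewer counts with vitamin C, with sums of 67 and 45 for PTPRC, 74 and 49 for ITGAX and 51 and 49 for CORO1A. CD3E had 4 and 1, and CD2 had 3 and 1. The part of such transcripts in the CD74 and class II values was not tested. Of 12 fibroblast and epithelial markers 6 had enough counts to test, and 3 were called (50.0%, against 11.2% of all genes tested). PDGFRB and COL3A1 were higher and KRT18 was lower. The KRT18 call was lost in 6 of 15 alternatives and the COL3A1 call in 2. The sum of the 12 markers was 67.0 to 72.0 CPM in control and 64.6 to 65.4 CPM with vitamin C. Most of it was KRT18, at 56.2 and 48.5 CPM. Of the 12, 4 had CPM that were higher in every vitamin C well than in any control well, as did 15.6% of all genes tested. Another 3 were lower without overlap, and the share of all genes that did so was not computed. CDH1, which was higher, and THY1, which was lower, had too few counts to test.

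Over the 6 libraries, the genes whose level in log2(CPM + 0.5) followed that of CD74 most closely were SAT1, DHRS3, SERPINA5, KDR, CTSK, FAP, OSTM1 and CALD1, with Pearson's r from 0.996 to 0.9997 over 13671 genes whose mean reached 1 CPM. The difference between the groups enters these correlations, the genes share their libraries, and the order is a description. HLA-DRB1 had rank 41 in this order (r = 0.991), HLA-DQB1 rank 104 (0.984), CIITA rank 280 (0.965), HLA-DPA1 rank 476 (0.946) and HLA-DRA rank 618 (0.931). HLA-DPB1 (0.713) and RFX5 (0.282) came much lower, at ranks 2422 and 5061. The genes nearest to CD74 in this order were therefore not class II genes.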

How the data were processed

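RNA-seq of 3 control and 3 vitamin C wells was examined. Raw counts per gene were deposited, which the authors made from ribosome-depleted total RNA, and the paper names STAR, HTSeq and GENCODE v19. The build hg38 and the tools Trim Galore, CASAVA 1.4 and STAR are named in the submitters' processing notes. The versions of STAR and HTSeq and the use of strand are not given in the sources used here. Symbols, coordinates and exon lengths were taken from GENCODE 29, which holds 57055 of the 60675 identifiers. The 6 single-sample tables and the series table hold the same counts.

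Counts were tested in R 4.3.3 with edgeR 4.0.16 (TMM factors, expression filter, quasi-likelihood test, Benjamini-Hochberg adjustment over the 16353 genes kept), and a call is an adjusted p under 0.05. CPM (with TMM factors) and RPKM were computed here from the counts. The steps were tested on simulated data. Alternatives were RLE, upper quartile and library size scaling, other filters and thresholds, the likelihood ratio test, DESeq2 1.42.0, limma-voom 3.58.1, the replicate number as a block, and each library left out in turn.

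The 10 genes and all gene lists, including blood cell, melanoma, and fibroblast and epithelial markers, were chosen with earlier results of these data known. Genes named are the 10, called genes of each pathway list (up to 5 in each direction), up to 3 abundant genes of each list that were not called, tested neighbours on chromosome 6, 8 genes closest to CD74, and genes near 0 that define a role. Others are marked as named after their values were seen. Intervals for counting error were not computed, since levels come from 3 replicates. The results of some listed genes are not reported here.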

Additional observations from a re-analysis of the deposited data

How the results depend on the processing

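Every log2 fold change of the 9 measured genes kept its direction in 15 alternatives, except that of RFX5. RFX5, which was not called, ran from -0.01 to 0.06 when single libraries were left out. Sizes moved more in these fits than in the others. HLA-DPA1 ran from 0.76 to 1.08 and HLA-DMA from 0.89 to 1.17 without single libraries, against 0.88 and 1.07 in the main fit. CD74 ran from 1.80 to 1.97 without single libraries and from 1.88 to 1.91 otherwise. Leaving out a library gave 5 to 6 calls among the 9 genes, 5 to 18 among the pathway genes and 964 to 2095 over all genes, where fewer samples enter the fit. At an adjusted p of 0.01 these counts were 5, 4 and 795. Upper quartile scaling gave 892 higher and 963 lower genes, and library size alone 1101 higher and 752 lower, against 996 and 833, while the median of all genes moved by less than 0.02 on the log2 scale. With the longest transcript as length, added after the data were seen, CD74 was at 21.3 RPKM in control and 79.2 RPKM with vitamin C, where the length alone differs. Deviations of wells with the same replicate number correlated at 0.157, -0.0544 and 0.117, and control replicate 2 correlated best with vitamin C replicate 3, so the numbers were not taken as pairs. With the replicate number as a block, 1913 genes, 14 pathway genes and 6 of the 9 genes were called, and the CD74 log2 fold change was 1.88. HLA-DQA1 and the other class II genes with too few counts were not tested in the main fit, and the reason for their low counts was not examined.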
